A study of Homo sapiens with 30 samples.

Results

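The medium dose was set against the low dose in A549, the 1 cell line of the series, derived from a human lung adenocarcinoma. The cells had been exposed for 24 h to extracts made with ethanol from 4 Korean herbal formulas, each given alone. The medium dose was 100 µg/mL and the low dose 20 µg/mL, so the step between them was 5-fold. The libraries were chosen by the dose in their labels: 18 of the 30 in the series, 9 at the Medium dose and 9 at the Low dose. Palmul-tang and Sibjeondaebo-tang had 3 libraries at each dose, Samul-tang had 2 (replicates 2 and 3) and Sagunja-tang had 1 (replicate 3). By tradition Palmul-tang combines Samul-tang with Sagunja-tang, and Sibjeondaebo-tang extends Palmul-tang with further herbs. The formula was kept as a term in the fit, so each Medium library was compared with Low libraries of its own formula. The 9 libraries of the High dose, 500 µg/mL, and the 3 vehicle libraries are given beside the results as levels. The vehicle is written as 0.1% DMSO in the sample labels and as 2% in the text of the series. The labels do not say whether replicates came from separate cultures, so the p-values cover the variation among these libraries and no more, and it may be technical. The final digit of the library code changes with formula and dose together, so any order of handling that it records cannot be told apart from dose.

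A549 cells carry a loss-of-function mutation in KEAP1, which leaves the transcription factor NRF2 active and its antioxidant targets at a high level without any treatment. NRF2 drives glutathione and NADPH enzymes, and the aryl hydrocarbon receptor (AhR), a sensor of planar aromatic compounds, drives xenobiotic enzymes such as CYP1A1 and CYP1B1. The line also makes fibrinogen, complement and other plasma proteins that hepatocytes secrete, a program known to respond to interleukin-6 and glucocorticoids. Mitotic genes are transcribed late in the cell cycle, under the MuvB complex with B-MYB and FOXM1, so their abundance in a culture follows how many cells are dividing.

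Totals were 30470383 to 33515072 counts per Medium library and 28579639 to 35159898 per Low library. They did not differ between the doses beyond the spread of libraries (exact two-sided permutation test within formulas, p = 0.988, 4800 regroupings). Across genes, libraries of the same formula and dose had correlations between 0.991 and 0.993. Of 60675 gene rows 17488 were abundant enough to test, and the biological coefficient of variation between libraries was 0.0463. All 8 markers of simple epithelium were above 1 CPM, the count scaled to a common library size, with sums of 8723 to 10132 CPM in Medium and 8269 to 9735 CPM in Low libraries. Of 10 markers of the alveolar type II cell 3 were above 1 CPM (LAMP3, SFTPD and ABCA3), SFTPA1 and SFTPA2 were at 0, and the sums were 36.5 to 39.9 CPM in Medium and 38.1 to 42.8 CPM in Low libraries. Above 1 CPM were 6 of 9 fibroblast markers (DCN, ACTA2, COL1A1, POSTN, LUM and COL3A1), 2 of 9 immune markers and 1 of 7 endothelial markers. Sums of the fibroblast markers were 32.6 to 35.4 CPM in Medium and 33.1 to 36.4 CPM in Low libraries. Those of the immune markers were 19.4 to 25.6 and 17.0 to 21.1 CPM, and those of the endothelial markers 18.1 to 21.5 and 18.6 to 21.8 CPM. Mitochondrially encoded genes took 15.9% to 20.0% of the counts of Medium and 15.0% to 18.6% of Low libraries, a difference within the spread (exact two-sided permutation test, p = 0.381). In cultures like these, fewer cells of a state and less RNA per cell cannot be told apart.

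At the Medium dose genes of mitosis and of the tubulin family, the xenobiotic enzymes ALDH3A1 and CYP1B1 and a few NRF2 targets rose, and 11 secreted plasma proteins, the Wnt antagonist DKK1 and the tight junction protein CLDN2 fell. A total of 123 of the 17488 genes (0.703%) passed an adjusted p of 0.05 in edgeR's quasi-likelihood test with Benjamini-Hochberg adjustment over all genes. Of these 31 (0.177% of all tested) were higher and 92 (0.526%) were lower in Medium libraries. These shares are the comparison for every count of calls in a list below. A change was positive, called or not, in 49.3% of all tested genes. The changes were small. The rises ran from 0.088 to 0.24 on the log2 scale with a median of 0.12, and the falls from -0.087 to -1.03 with a median of -0.15. A single called gene changed by more than 0.5, PCDHGB7, a protocadherin, which averaged 0.198 CPM in Medium and 0.408 CPM in Low libraries. The median SE of a log2 change was 0.026 for the called genes and 0.045 over all genes tested, and the median change over all genes was -0.001.

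The 9 Medium libraries did not overlap the 9 Low libraries in 22 of the 123 called genes, 9 above and 13 below, against 24 genes (0.137%) of all those tested. In 117 of the 123 the mean moved the same way in all 4 formulas, against 20% of all tested genes, and this count rests on the same libraries as the test. Protein-coding genes made up 121 of the 123 (98.4%), against 79.3% of all tested genes. The number of calls depended on single libraries: it was 212 without Sibjeondaebo-tang Low replicate 1 and 210 without Palmul-tang Low replicate 1, but 77 without Sibjeondaebo-tang Low replicate 2 and 79 without Sibjeondaebo-tang Medium replicate 1. A core of 62 genes passed in every one of the 18 fits that left out 1 library. Of these fits, the 2 without a Sagunja-tang library are close to the same fit. The formula term takes up the lone library left, so both remove that formula from the comparison of doses.

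**Figure D1:**
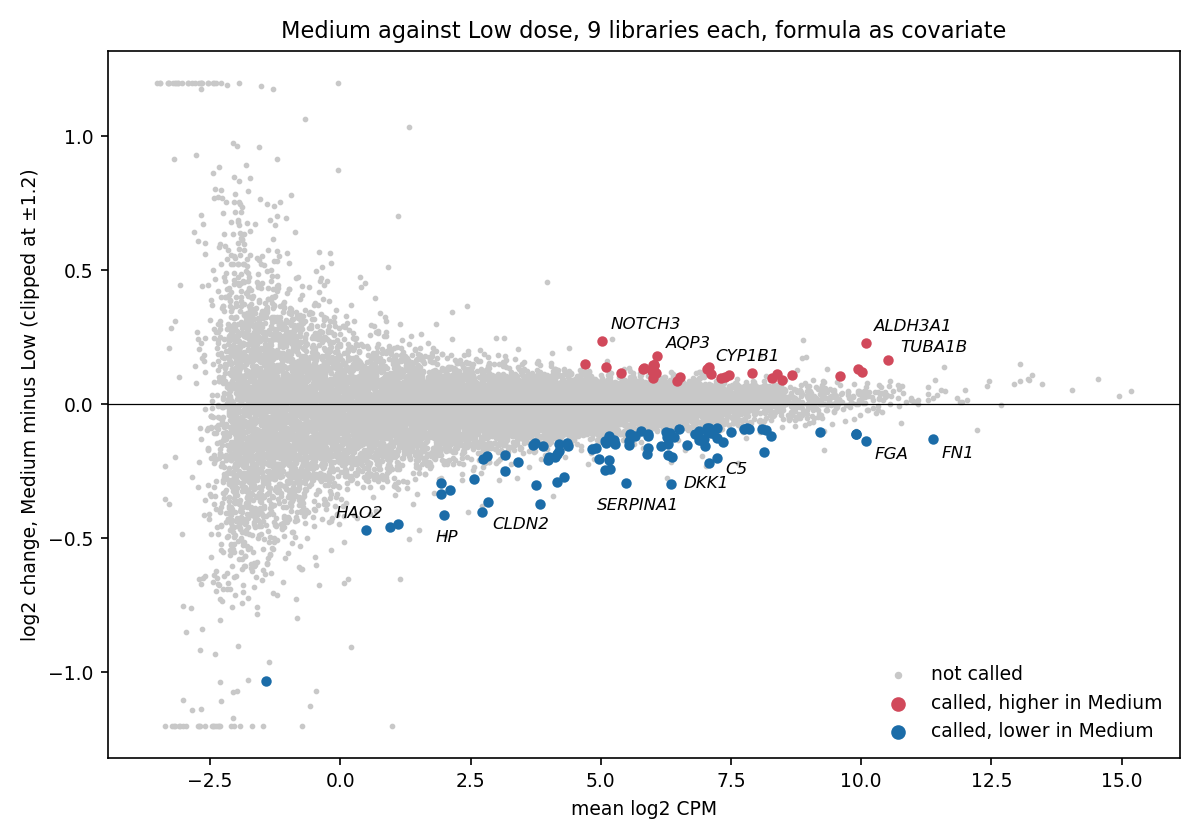
Log2 change of Medium minus Low (y axis, clipped at ±1.2) against mean log2 CPM (x axis) for 17488 genes, with grey points for genes that did not pass, red for the 31 higher and blue for the 92 lower in Medium libraries. The red points reach 0.24 and the blue points reach further from 0. Among them are HAO2 at -0.45, CXCL8 at -0.46 and a gene of low abundance, PCDHGB7, at -1.03.

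The plasma proteins that hepatocytes are known for were the list with the most falls. Of 23 listed genes 18 were abundant enough to test, and ALB, TTR, SERPINC1, ORM1 and ORM2 were not. Of the 18, 11 fell and none rose, with a median log2 change of -0.16, against -0.001 over all genes. Of all tested genes 0.526% fell and 0.177% rose. C5, the complement component cleaved to form C5a and the membrane attack complex, was at 134 to 144 CPM in Medium libraries with a median of 137, and at 148 to 165 CPM in Low libraries with a median of 157. Every Medium library was below every Low library. The change was -0.20 on the log2 scale (SE 0.023, adjusted p = 6.45e-06), with -0.20 in Palmul-tang, -0.17 in Sibjeondaebo-tang, -0.22 in Samul-tang and -0.22 in Sagunja-tang. The gene lies at chr9:120952335-121050276 (GRCh38, minus strand).

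The 3 fibrinogen chains, which assemble into the clotting protein and are encoded side by side on chromosome 4, all fell. FGA was at 983 to 1050.5 CPM with a median of 1021 in Medium libraries and at 1068 to 1166 CPM with a median of 1121 in Low libraries, again with no overlap. Its change was -0.14 (SE 0.020, adjusted p = 0.000297), and it lay between -0.13 and -0.14 in the 4 formulas. FGB averaged 910.2 ± 30.6 CPM in Medium and 980.3 ± 27.4 CPM in Low libraries (SD, n = 9 each), a change of -0.11. FGG averaged 904 ± 20.7 CPM in Medium and 974 ± 36.5 CPM in Low libraries, a change of -0.11. Their adjusted p-values were 0.0159 for FGB and 0.0145 for FGG. FGB lost its call without either Sagunja-tang library (adjusted p up to 0.0718), and FGG without either of them or without Samul-tang Low replicate 3 (up to 0.062).

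The promoters of FGA and FGB are shown because both genes fell together and both hold the letters TTGCNNAA, a pattern that C/EBP factors are known to bind. The sequences run from 250 bases before to 50 after the start of transcription (RefSeq, GRCh38.p14, FGA at chr4:154590693-154590992 on the minus strand, FGB at chr4:154562730-154563029 on the plus strand). Capitals mark the match, which in FGA is on the opposite strand, and no other pattern searched overlaps it.
FGA: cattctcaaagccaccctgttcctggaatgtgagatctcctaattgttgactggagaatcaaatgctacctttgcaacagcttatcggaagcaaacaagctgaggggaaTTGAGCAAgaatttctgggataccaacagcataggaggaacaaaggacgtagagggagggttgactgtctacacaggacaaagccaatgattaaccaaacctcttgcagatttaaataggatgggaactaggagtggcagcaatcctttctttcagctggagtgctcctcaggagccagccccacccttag
FGB: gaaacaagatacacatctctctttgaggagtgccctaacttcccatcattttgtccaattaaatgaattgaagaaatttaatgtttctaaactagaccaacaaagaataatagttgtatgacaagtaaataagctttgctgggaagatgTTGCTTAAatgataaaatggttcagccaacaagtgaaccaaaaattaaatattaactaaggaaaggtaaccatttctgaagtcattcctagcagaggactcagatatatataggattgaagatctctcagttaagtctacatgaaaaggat
Searched on both strands, TTGCNNAA was in 3 of the 8 promoters available for the 11 genes (FGA, FGB and KNG1), in 7 of 74 promoters of all genes that fell and in 7.25% of 11960 promoters of tested genes. GTTAAT, the half-site of HNF1, was in FGA and FGB, and in 3.95% of promoters of tested genes. A match describes letters, not binding.

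The largest falls in the list were of haptoglobin and transferrin. HP, haptoglobin, which binds free haemoglobin, was at 2.75 to 3.90 CPM in Medium and 3.40 to 5.05 CPM in Low libraries, with medians of 3.32 in Medium and 4.41 in Low. These ranges overlap, and the change was -0.41 (SE 0.074, adjusted p = 0.00271). Its near copy HPR can share reads with HP, which leaves this value uncertain. TF, transferrin, the iron carrier of plasma, had medians of 11.6 CPM in Medium and 14.6 CPM in Low libraries and changed by -0.30 (SE 0.048, adjusted p = 0.000643), with exons that overlap SRPRB on the same strand. SERPINA1, the inhibitor of neutrophil elastase, was at 33.5 to 47.1 CPM in Medium and 45.7 to 51.2 CPM in Low libraries and changed by -0.29 (SE 0.050, adjusted p = 0.00754). KNG1, the precursor of bradykinin, changed by -0.29 (adjusted p = 0.000622). CFB, the protease of the alternative complement pathway, was at 4.47 to 5.76 CPM in Medium and 5.92 to 7.04 CPM in Low libraries, without overlap, and changed by -0.28 (adjusted p = 0.00478). It shares exon sequence on the same strand with C2.

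APOB, the scaffold of low-density lipoprotein, averaged 8.01 ± 0.787 CPM in Medium and 9.47 ± 0.798 CPM in Low libraries (SD, n = 9 each) and changed by -0.25 (adjusted p = 0.0169). Its call was lost without Samul-tang Low replicate 3 (adjusted p = 0.0567). CP, ceruloplasmin, the copper ferroxidase, averaged 259 ± 14.4 CPM in Medium and 292 ± 17.4 CPM in Low libraries, a change of -0.18 (adjusted p = 0.0145). The 7 members that did not pass were APOH at -0.15, HPX at -0.17, C3 at -0.068, AGT at -0.12, AMBP at 0.036, APOC3 at 0.072 and APOA1 at 0.20, of which AGT and APOA1 averaged under 1 CPM. The count of falls ran from 9 to 12 over the fits that left out 1 library, was 10 with DESeq2, and was 7 to 9 with a whole formula left out, with no rise in any of these.

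Among vehicle and the 3 doses, Low had the highest mean of C5, FGA and CP. The other called genes of the list are not given across vehicle and the doses here. C5 averaged 99.6 CPM in the 3 vehicle libraries, 158 at Low, 138 at Medium and 109.9 at High. FGA averaged 957 CPM in vehicle, 1120.1 at Low, 1021 at Medium and 908 at High. CP averaged 187, 292, 259 and 251 CPM in the same order. The vehicle libraries carry another code prefix than the extract libraries, so no test against vehicle is given, and a difference of preparation cannot be told apart from the extract there.

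DKK1, a secreted antagonist of Wnt signalling, was among the clearest single falls. It was at 64.1 to 78.7 CPM with a median of 74.4 in Medium libraries and at 83.4 to 94.9 CPM with a median of 87.7 in Low libraries. The groups did not overlap. The change was -0.30 (SE 0.032, adjusted p = 8.00e-06), between -0.35 and -0.27 in the 4 formulas, at chr10:52314296-52318042 on GRCh38. CLDN2, the claudin that forms cation pores in tight junctions, was at 4.82 to 6.13 CPM in Medium and at 6.50 to 7.92 CPM in Low libraries, also without overlap. It changed by -0.40 (SE 0.053, adjusted p = 5.68e-05). Across the doses CLDN2 averaged 4.87 CPM in vehicle, 7.28 at Low, 5.52 at Medium and 4.34 at High, while DKK1 averaged 82.3, 88.6, 72.3 and 61.4 CPM.

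**Figure D2:**
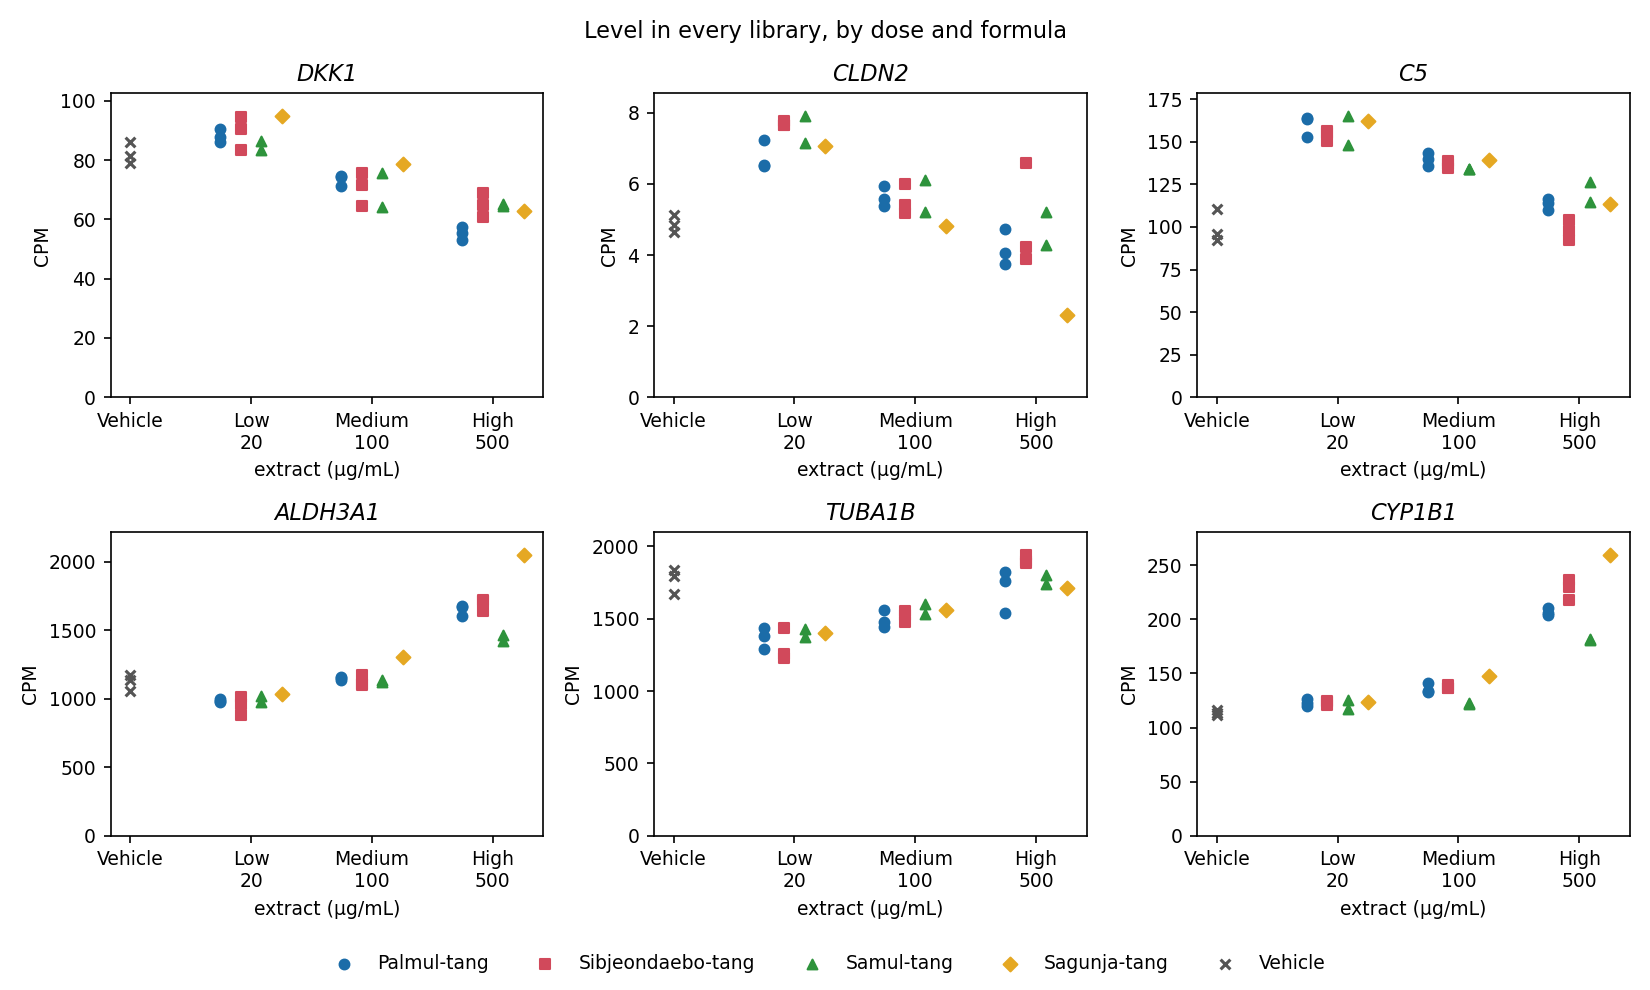
CPM in every library (y axis, from 0) by dose in µg/mL (x axis), with vehicle at the left, for 6 genes; colour and shape give the formula. The Medium points of DKK1, CLDN2 and C5 lie below all Low points, those of ALDH3A1 and TUBA1B lie above all Low points, and those of CYP1B1 overlap the Low points in Samul-tang.

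Among the other large falls were enzymes and secreted proteins of varied roles. HAO2, a peroxisomal hydroxyacid oxidase, had medians of 1.77 CPM in Medium and 2.37 CPM in Low libraries and changed by -0.45 (SE 0.093, adjusted p = 0.0135). FCGBP, a mucus protein, changed by -0.37 (adjusted p = 0.0376) and averaged 10.9, 15.7, 12.1 and 13.1 CPM from vehicle to High; 7 of the 18 fits with 1 library left out called it. SAA2, an acute-phase apolipoprotein, was at 5.51 to 6.82 CPM in Medium and 6.76 to 9.56 CPM in Low libraries and changed by -0.36 (SE 0.057, adjusted p = 0.000622). Reads of SAA2 can be shared with its near copy SAA1 and with the readthrough gene SAA2-SAA4. RGCC, a cell-cycle regulator that responds to complement, changed by -0.34 (adjusted p = 0.0281), a call that 9 of the 18 fits kept, and ABI3BP, a matrix protein, by -0.27 (adjusted p = 0.0145). ATP8B5P, a pseudogene, changed by -0.29 (adjusted p = 0.0402), with 0.017 in Sagunja-tang, and 7 of the 18 fits called it.

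Of 9 tested genes of mucins and gastric-type epithelium 2 fell and 1 rose, with a median of -0.11. PGC, pepsinogen C, was at 26.7 to 32.7 CPM in Medium and 33.2 to 39.7 CPM in Low libraries, without overlap. It changed by -0.25 (SE 0.037, adjusted p = 0.000457), and by -0.23 to -0.26 in the 4 formulas. AGR2, a disulfide isomerase for mucins, averaged 561 ± 16.3 CPM in Medium and 602 ± 21.2 CPM in Low libraries (SD, n = 9 each), a change of -0.11 (adjusted p = 0.0291) that 9 of the 18 fits with 1 library left out called. AQP3, the aquaglyceroporin of the basolateral membrane, went the other way. It was at 65.7 to 75.5 CPM in Medium and 60.9 to 64.2 CPM in Low libraries, without overlap, and changed by 0.18 (SE 0.025, adjusted p = 0.000152). MUC5B, at -0.22, and MUC13, at -0.15, did not pass.

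In the list of NF-kB and inflammation 2 of 22 tested genes fell and none rose, with a median of -0.03. SOD2, the mitochondrial superoxide dismutase, had medians of 153 CPM in Medium and 169 CPM in Low libraries and changed by -0.14 (SE 0.024, adjusted p = 0.00133). Its exons overlap another gene entry named SOD2 on the same strand, so reads may be shared. CXCL8, the neutrophil chemokine interleukin-8, averaged 1.56 CPM in Medium and 2.13 CPM in Low libraries and changed by -0.46 (adjusted p = 0.0331), a call that 11 of the 18 fits with 1 library left out lost. NFKBIA, the inhibitor that NF-kB induces, was at -0.023. Over those fits the number of falls ran from 1 to 3. In the list of epithelial and mesenchymal state 18 genes were tested, FN1 and CLDN2 fell and VIM rose. FN1, fibronectin, averaged 2517 ± 121 CPM in Medium and 2747 ± 92.5 CPM in Low libraries (SD, n = 9 each), a change of -0.13 (adjusted p = 0.0028). VIM, vimentin, was at 772 to 807 CPM in Medium and 701 to 767 CPM in Low libraries, without overlap, and changed by 0.11 (adjusted p = 0.0163). In the list of fatty acid oxidation 1 of 12 tested genes fell and none rose, with a median of 0.0086.

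Mitotic genes were the list with the most rises. All 30 were tested, all 30 had a positive change, 8 rose and none fell, with a median of 0.10. Of all tested genes 49.3% had a positive change and 0.177% rose. CDC20, the activator of the anaphase-promoting complex, was at 64.8 to 71.6 CPM with a median of 67.7 in Medium libraries and at 56.3 to 64.3 CPM with a median of 61.4 in Low libraries. The groups did not overlap, and the change was 0.15 (SE 0.027, adjusted p = 0.00416). KIF2C, the kinesin that corrects kinetochore attachments, had medians of 26.9 CPM in Medium and 24.0 CPM in Low libraries and changed by 0.15 (SE 0.034, adjusted p = 0.0238). Its call was lost without Sibjeondaebo-tang Medium replicate 1 or Low replicate 3, or without Palmul-tang Low replicate 2 or 3. PTTG1, securin, changed by 0.15 (adjusted p = 0.00824), but by -0.058 between the lone Sagunja-tang libraries. CCNA2, cyclin A2, averaged 58.8 ± 2.30 CPM in Medium and 53.4 ± 2.10 CPM in Low libraries (SD, n = 9 each) and changed by 0.14 (SE 0.027, adjusted p = 0.0065).

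The remaining 4 that passed were KIF11, the kinesin that pushes spindle poles apart, at 0.12, the spindle proteins TPX2 at 0.10 and NUSAP1 at 0.099, and the kinase AURKA at 0.10. Each of these 4 kept its call in 6 or 12 of the 18 fits with 1 library left out. The 22 that did not pass lay between 0.030 for CENPE and 0.12 for UBE2C. Outside the list CDCA3, a trigger of mitotic entry, changed by 0.14 (adjusted p = 0.00975) and HJURP, the chaperone of the centromeric histone CENP-A, by 0.12 (adjusted p = 0.0159), a call lost without Sibjeondaebo-tang Medium replicate 1 (adjusted p = 0.0514). The count of 8 depended on single libraries. It was 15 without Sibjeondaebo-tang Low replicate 1, 3 without Sibjeondaebo-tang Medium replicate 1, and 5 when Samul-tang Low replicate 2 was left out. It was 4 without any one of Samul-tang Medium replicate 2, Palmul-tang Medium replicates 1 and 2, Palmul-tang Low replicates 2 and 3, and Sibjeondaebo-tang Low replicates 2 and 3. With DESeq2 it was 17, and with Palmul-tang left out it was 0. The median of the list stayed between 0.090 and 0.11 with any 1 library left out. The 30 genes of DNA replication, which act in S phase, had a median of 0.059, with 28 positive, and none passed by edgeR, while 17 were higher at an unadjusted p under 0.05, against 5.03% of all genes.

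The promoter of CDC20 is shown because the patterns known from promoters of late cell-cycle genes stand in it (RefSeq, GRCh38.p14, chr1:43358731-43359030, plus strand). Capitals mark both matches to TTTGAA, the cell-cycle homology region that MuvB binds, of which the first is on the opposite strand.
CDC20: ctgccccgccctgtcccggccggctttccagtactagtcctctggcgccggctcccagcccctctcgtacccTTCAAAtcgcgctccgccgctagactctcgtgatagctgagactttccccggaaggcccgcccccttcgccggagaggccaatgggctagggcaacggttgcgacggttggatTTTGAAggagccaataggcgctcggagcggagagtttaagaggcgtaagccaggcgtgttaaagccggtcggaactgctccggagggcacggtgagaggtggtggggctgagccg
TTTGAA was in 3 of the 6 promoters available for the 8 mitotic genes that rose (CDC20, KIF11 and NUSAP1), in 9 of 25 promoters of all genes that rose, in 16 of 74 promoters of genes that fell and in 9.98% of promoters of tested genes. CCAAT, the NF-Y pattern, was in 5 of the 6, in 12 of the 25 and in 36.4% of promoters of tested genes. No pattern searched overlaps the capitals.

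Tubulins, the subunits of microtubules, were grouped after their values were seen. Of 19 tested tubulin genes 5 rose, against 0.177% of all tested genes, and none fell, with a median of 0.12. TUBA1B was at 1446 to 1602 CPM with a median of 1536 in Medium libraries and at 1230.1 to 1437 CPM with a median of 1383 in Low libraries. Every Medium library was above every Low library, by a change of 0.16 (SE 0.029, adjusted p = 0.00208). TUBB was at 986 to 1055 CPM in Medium and 835 to 969 CPM in Low libraries, also without overlap, and changed by 0.13 (SE 0.024, adjusted p = 0.00312). TUBA4A changed by 0.14 (adjusted p = 0.00579), TUBB3 by 0.12 (adjusted p = 0.0196, lost in 4 of the 18 fits with 1 library left out) and TUBB4B by 0.11 (adjusted p = 0.00824). Tubulin genes are near copies of each other, and reads can be divided among them. In all 5 the vehicle libraries were above the Medium and Low libraries by mean: TUBA1B averaged 1767 CPM in vehicle, 1359.6 at Low, 1525 at Medium and 1789 at High, and TUBB3 averaged 63.9, 39.7, 43.2 and 50.2 CPM.

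Of 10 tested AhR targets 3 rose, against 0.177% of all tested genes, and none fell, with a median of 0.075. The count of 3 stood in every fit with 1 library left out. It was 1 without Palmul-tang or without Sibjeondaebo-tang, where ALDH3A1 alone passed, and 2 without Samul-tang. ALDH3A1, an aldehyde dehydrogenase, was at 1103 to 1304 CPM with a median of 1141 in Medium libraries and at 884 to 1033 CPM with a median of 986 in Low libraries. The groups did not overlap, and the change of 0.23 (SE 0.025) had an adjusted p of 6.05e-06. It was 0.21 in Palmul-tang, 0.24 in Sibjeondaebo-tang, 0.18 in Samul-tang and 0.34 in Sagunja-tang. CYP1B1, the cytochrome that oxidizes oestrogens and polycyclic compounds, was at 122 to 147 CPM in Medium and 117 to 126 CPM in Low libraries and changed by 0.13 (SE 0.024, adjusted p = 0.00416). Its exons overlap RMDN2-AS1 on the same strand. SLC7A5, the transporter of large neutral amino acids, which is also in the ATF4 list, averaged 1062 ± 20.9 CPM in Medium and 974 ± 46.0 CPM in Low libraries (SD, n = 9 each) and changed by 0.12 (adjusted p = 0.0135). CYP1A1, the target most often used as a readout of AhR, averaged 0.416 CPM in Medium and 0.267 CPM in Low libraries and did not pass (adjusted p = 0.263). TIPARP was at 0.075 and NQO1, a target of both AhR and NRF2, at 0.047.

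Of 26 NRF2 targets 3 rose, against 0.177% of all tested genes, and none fell. The median was 0.057, and 22 were positive, against 49.3% of all tested genes. GCLM, the modifier subunit of the enzyme that limits glutathione synthesis, was at 130.5 to 157 CPM with a median of 144 in Medium libraries and at 121 to 144 CPM with a median of 129.8 in Low libraries. It changed by 0.11 (SE 0.024, adjusted p = 0.0159). OSGIN1, an oxidative stress-induced growth inhibitor, changed by 0.13 (SE 0.026, adjusted p = 0.00803). SRXN1, sulfiredoxin, which restores oxidized peroxiredoxins, changed by 0.098 (SE 0.023, adjusted p = 0.0331), a call held in 9 of the 18 fits with 1 library left out. HMOX1, haem oxygenase, was at 0.10 (adjusted p = 0.0886), TXNRD1 at -0.0077 and SLC7A11 at 0.012. The count was 6 without Sibjeondaebo-tang Low replicate 1, 5 without Palmul-tang Low replicate 1, 9 rises and 1 fall with DESeq2, and 0 with Palmul-tang, Sibjeondaebo-tang or Samul-tang left out whole.

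The promoter of GCLM is shown because the letters TGACNNNGC, the antioxidant response element that NRF2 is known to bind, stand close to its start (RefSeq, GRCh38.p14, chr1:93909381-93909680, minus strand). Capitals mark the match, on the opposite strand.
GCLM: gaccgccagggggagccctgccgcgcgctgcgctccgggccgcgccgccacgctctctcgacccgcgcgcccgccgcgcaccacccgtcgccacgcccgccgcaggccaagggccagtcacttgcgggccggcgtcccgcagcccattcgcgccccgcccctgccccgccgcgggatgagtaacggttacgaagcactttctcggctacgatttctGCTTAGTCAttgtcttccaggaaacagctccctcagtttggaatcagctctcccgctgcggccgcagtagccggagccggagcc
TGACNNNGC was in 2 of the 4 promoters available for the 6 genes of the AhR and NRF2 lists that rose (GCLM and SLC7A5), in 8 of 25 promoters of all genes that rose, in 9 of 74 promoters of genes that fell and in 15.1% of promoters of tested genes. GCGTG, the core letters that AhR with ARNT binds, was in all 4, which are GCLM, OSGIN1, SLC7A5 and SRXN1. Of these SLC7A5 alone is in the AhR list, and no promoter was available for CYP1B1 or ALDH3A1. GCGTG was also in 16 of the 25, in 20 of the 74 and in 49.6% of promoters of tested genes. The end of TGACNNNGC can share 2 letters with the start of GCGTG, though no pattern searched overlaps the capitals here.

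The largest rise was that of NOTCH3, a Notch receptor. It was at 31.6 to 37.2 CPM with a median of 34.6 in Medium libraries and at 26.9 to 33.7 CPM with a median of 29.2 in Low libraries. The ranges overlap, and the change was 0.24 (SE 0.036, adjusted p = 0.000413), between 0.23 and 0.25 in the 4 formulas. None of the other 10 tested genes of the Notch list passed; HES1, a target of the pathway, was at 0.093 and NOTCH1 at 0.055. CYP4F11, an omega-hydroxylase of fatty acids and vitamin K, was at 64.4 to 69.7 CPM in Medium and 57.2 to 62.7 CPM in Low libraries, without overlap, and changed by 0.15 (SE 0.025, adjusted p = 0.00126). No other of the 13 tested cytochromes P450 outside the AhR list passed. In the interferon list 1 of 21 tested genes rose and none fell, with a median of 0.011. In the ATF4 list 23 genes were tested, SLC7A5 rose and SLC38A2, a transporter of small neutral amino acids, fell by 0.12 (SE 0.025, adjusted p = 0.0147). This call was lost without Samul-tang Low replicate 3 or either Sagunja-tang library (adjusted p up to 0.0639). SLC38A2 averaged 208 CPM in vehicle, 317 at Low, 292 at Medium and 283 at High.

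No gene passed by edgeR in the lists of the unfolded protein response (16 tested, all 16 negative, median -0.018), heat shock (15, median 0.027), metallothioneins (6, median -0.010), hypoxia and glycolysis (24, median -0.027), cholesterol (21, median -0.0032) or fatty acid synthesis (13, median -0.025). None passed among aminoacyl-tRNA synthetases (18, median 0.037), immediate early genes (22, median -0.028), p53 targets (20, median 0.014), glucocorticoid and FOXO targets (18, median -0.0059), clock genes (17, median -0.0028) or TGF-beta and BMP response genes (17, median -0.091). Ribosomal proteins had a median of 0.027 over 30 genes with 29 positive, proteasome genes 0.032 over 21 with all 21 positive, and mitochondrially encoded genes 0.086 over 13 with all 13 positive, and none passed. Members of such lists share libraries, so equal signs in a list are not separate observations. Lysosomal genes (19, median -0.0059), nuclear genes of the respiratory chain (25, median 0.019), histones (11, median -0.014), multidrug transporters (9, median -0.033), aldo-keto reductases (11, median -0.0002) and conjugation enzymes (20, median -0.012) held no call either, nor did any of the 5 marker lists. In the lists of this paragraph and DNA replication together, DESeq2 called 11 genes, 6 higher and 5 lower, among them 3 lower in fatty acid synthesis and 2 higher in DNA replication. At an unadjusted p under 0.05 they held 45 genes higher and 30 lower of 422 listings tested, against 5.03% and 6.52% of all genes. These were spread unevenly: DNA replication alone, with 30 genes tested, held 17 of the 45 higher and none lower. The TGF-beta and BMP response held 7 lower and 1 higher of 17. Fatty acid synthesis held 5 lower of 13, and the aminoacyl-tRNA synthetases 6 higher of 18.

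**Figure D3:**
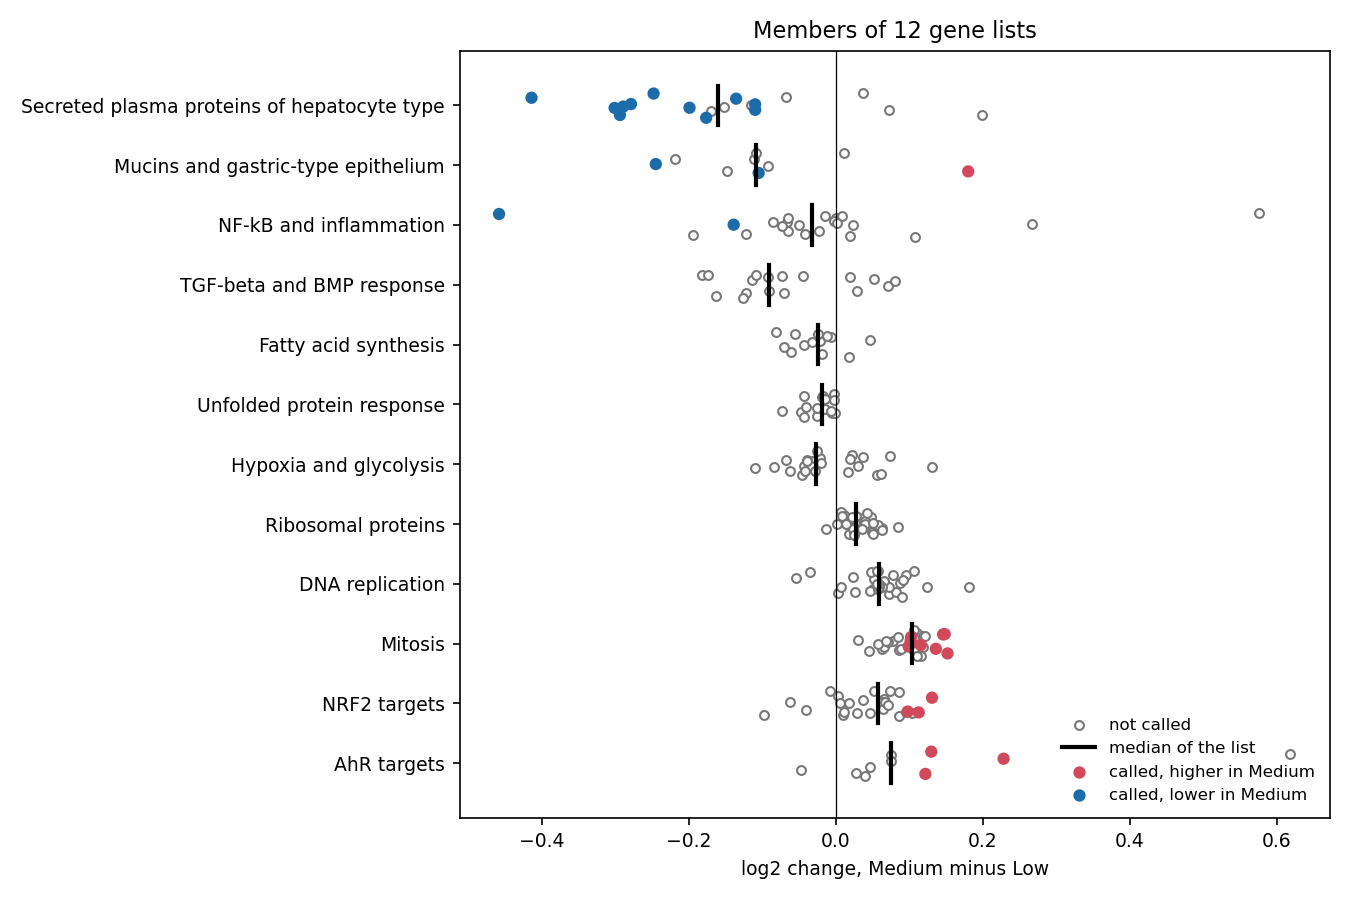
Log2 change of Medium minus Low (x axis) for each tested member of 12 gene lists (rows), with the median as a black bar, filled points for genes that passed and open points for those that did not. The medians run from -0.16 in the plasma proteins to 0.10 in the mitotic genes, and the unfolded protein response lies close to 0.

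Within single formulas the same step gave few calls. By edgeR no gene passed in Palmul-tang, where 807 (4.61%) had an unadjusted p under 0.05 and DESeq2 called 11. None passed in Sibjeondaebo-tang either, where 1142 (6.53%) had an unadjusted p under 0.05 and DESeq2 called 24. In Sibjeondaebo-tang 72 genes passed without its Low replicate 1 and 7 without its Medium replicate 3. Samul-tang had 1 call (0.00572% of genes) by edgeR and 2 by DESeq2, while the unadjusted p was under 0.05 in 1068 (6.11%). The call was ZNF225-AS1, an antisense RNA at chr19:44105463-44113145. It held 25 and 30 counts in the Medium libraries and 0 and 0 in the Low libraries of that formula, and 13 to 54 counts in every library of the other formulas. Its adjusted p was 0.0109, and the call was lost without Samul-tang Low replicate 3. Sagunja-tang has 1 library at each dose and no test.

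The change did not differ among the formulas past the threshold in any gene. The test of the interaction called 0 of 17488 genes by edgeR, with 422 (2.41%) at an unadjusted p under 0.05 and 1 call with DESeq2. Among the 123 called genes 1 had an unadjusted interaction p under 0.05, CYP1B1 (edgeR's quasi-likelihood test, unadjusted p = 0.0228, adjusted p = 1). Its change was 0.14 in Palmul-tang, 0.15 in Sibjeondaebo-tang, 0.0081 in Samul-tang and 0.26 in Sagunja-tang. The SE in Samul-tang, 0.046 for CYP1B1 and 0.17 for HP, was larger than the pooled SE of 0.024 and 0.074, so these libraries resolve differences between formulas less well than the pooled change. With Palmul-tang left out 38 genes passed, with Sibjeondaebo-tang left out 41, with Samul-tang left out 66 and with Sagunja-tang left out 104. A set of 22 of the 123 passed with each formula left out in turn, and none of the 123 changed sign.

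**Figure D4:**
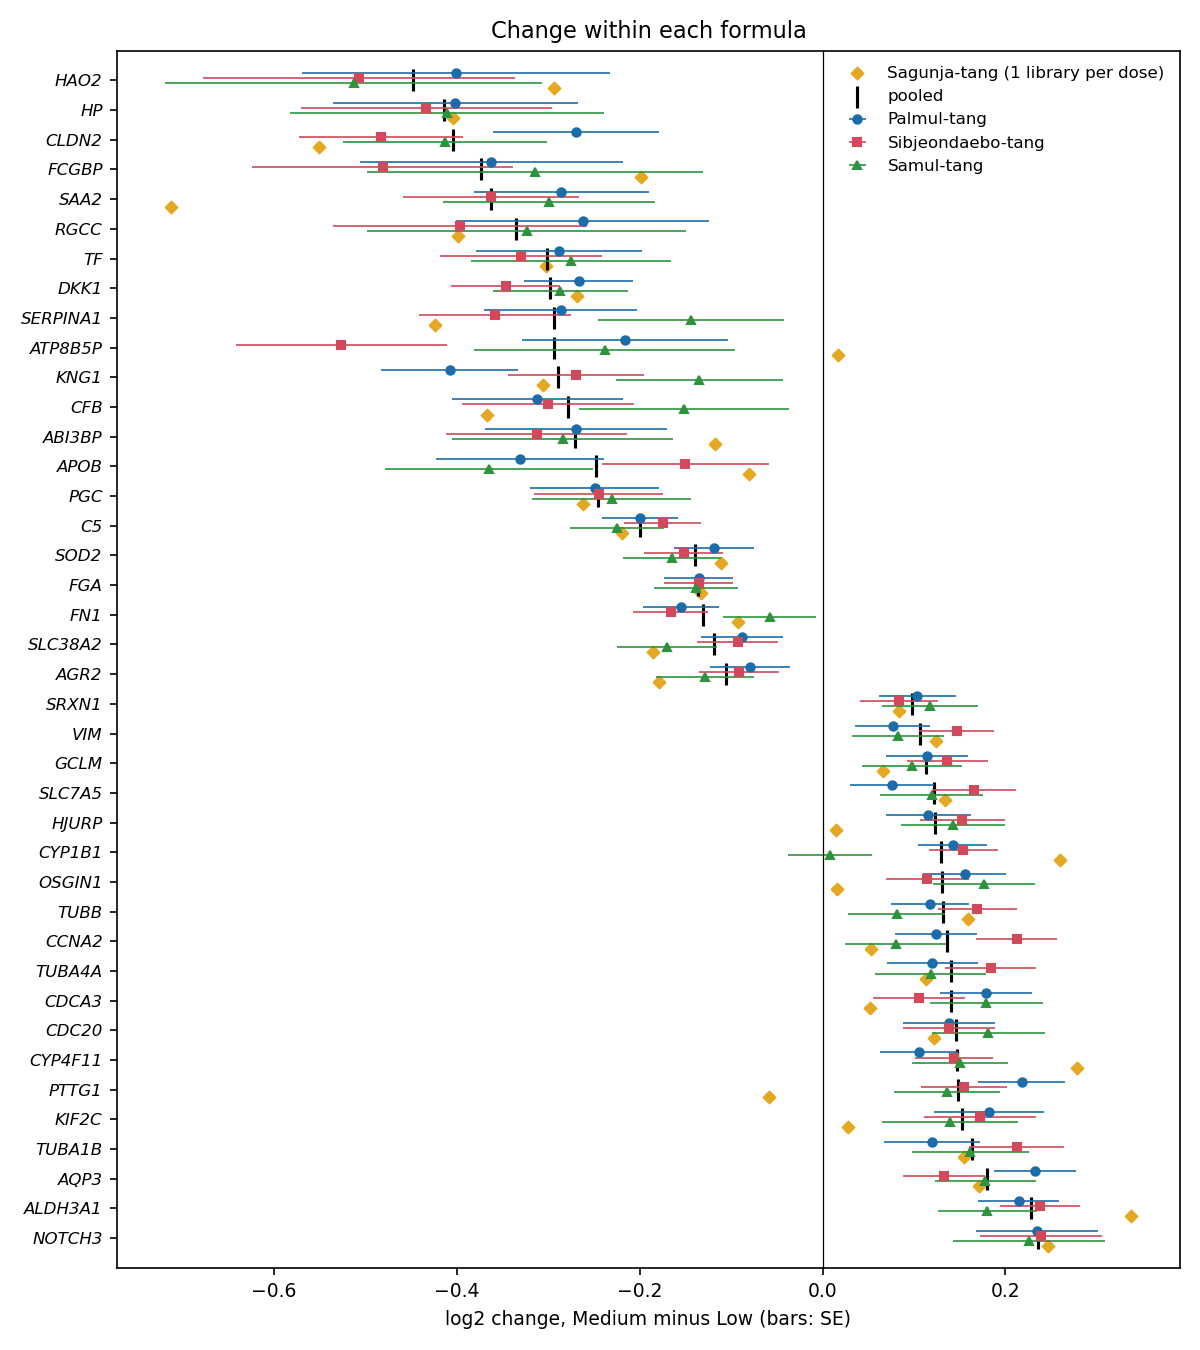
Log2 change of Medium minus Low (x axis) within each formula for 40 of the 42 named genes (rows), with bars of 1 SE for the 3 formulas with replicates, a diamond without bar for Sagunja-tang and a black tick for the pooled value. The symbols lie on the same side of 0 as the pooled value in all but PTTG1 and ATP8B5P, whose Sagunja-tang values cross 0.

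The step from Medium to High was also 5-fold, which allows the size of the steps to be compared. They share the Medium libraries, so a Medium level off by chance moves both steps, in opposite directions. The difference between the steps, High minus Medium less Medium minus Low, passed in 16 of 17632 genes (0.0907%), 10 positive and 6 negative, in a fit of 27 libraries with formula as a term. CYP1B1 led it: it was at 117 to 126 CPM in Low, 122 to 147 in Medium and 181 to 259.6 in High libraries. The step was 0.13 to Medium and 0.66 to High, a difference of 0.53 (SE 0.060, adjusted p = 7.46e-06). HMOX1 stepped by 0.11 and 0.62 (adjusted p = 0.0031), and AQP3 by 0.18 and 0.57 (adjusted p = 0.0031). ALDOC, the brain-type aldolase, stepped by -0.031 and 0.45 (adjusted p = 0.00118). CPM, the gene of carboxypeptidase M, stepped by -0.12 and -0.47 (adjusted p = 0.000102), and its exons overlap MDM2 on the other strand.

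Of the 123 genes 5 had steps that differed in size: CYP1B1, AQP3, ALDH3A1, ITGA1 and CPM, each larger towards High. ALDH3A1 stepped by 0.23 and 0.52 (adjusted p = 0.0471), and ITGA1, the collagen-binding integrin alpha 1, by -0.15 and -0.44 (adjusted p = 0.00688). Exons of ITGA1 overlap PELO on the same strand. CYP1A1, which averaged under 1 CPM at Low and Medium, reached 1.53 to 13.5 CPM at High, with a median of 3.10 (adjusted p = 0.0293). HRK, a pro-apoptotic BH3 protein, stepped by 0.061 to Medium and -0.27 to High (adjusted p = 0.0471). For the whole step from Medium to High 2284 genes passed (13%), and 461 (2.64%) without Sibjeondaebo-tang. The difference of steps passed in 5 of 17452 genes (0.0287%) without that formula, CPM, CYP1B1, ALDOC and HMOX1 among them. AQP3, ALDH3A1, ITGA1, CYP1A1 and HRK did not pass in that fit (edgeR's quasi-likelihood test, adjusted p from 0.302 to 0.893). Their differences there were 0.32, 0.26, -0.23, 2.15 and -0.28 in the same order, against 0.39, 0.29, -0.29, 2.55 and -0.33 with all formulas. With a Medium or Low library left out, the number of genes whose steps differed ran from 9 to 18. It was 9 without Sibjeondaebo-tang Medium replicate 1 or 3 or Palmul-tang Medium replicate 3, and 10 without Samul-tang Low replicate 2 or Sibjeondaebo-tang Low replicate 2.

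**Figure D5:**
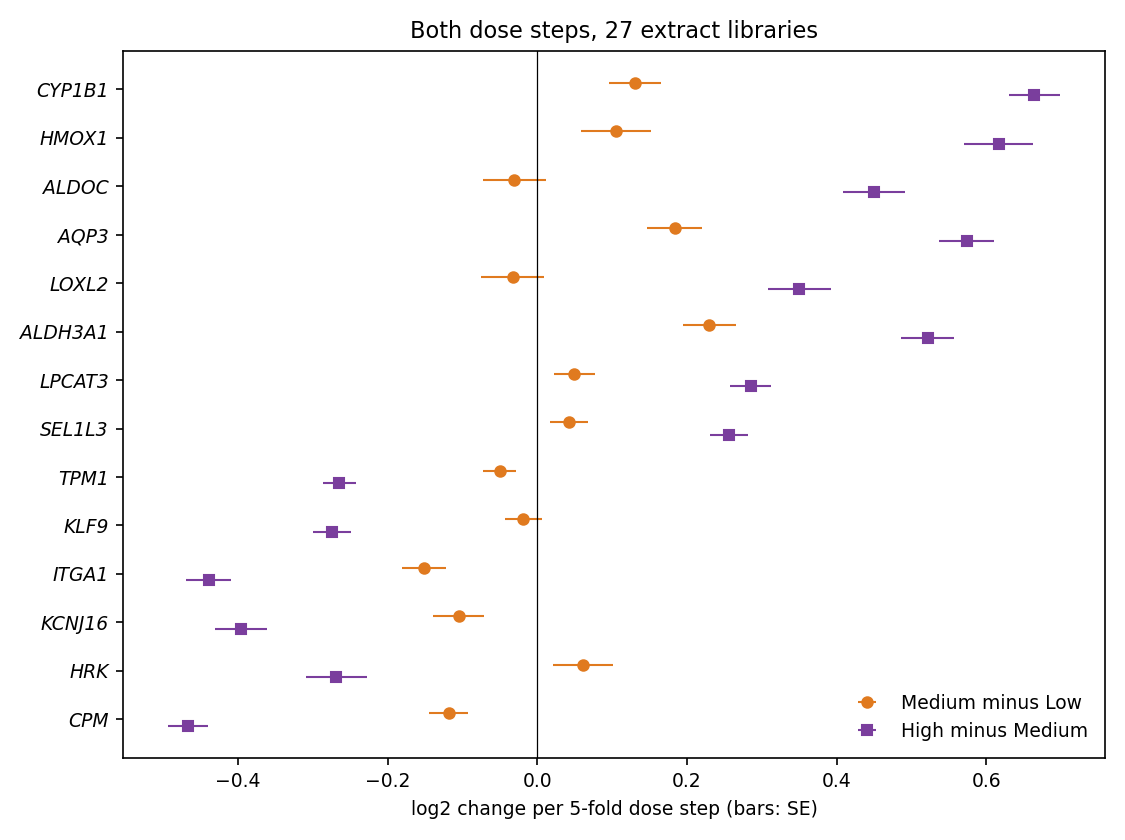
Log2 change per 5-fold step of dose (x axis, bars of 1 SE) for 14 of the 16 genes whose steps differed past the threshold (rows), with orange circles for Medium minus Low and purple squares for High minus Medium. CYP1A1 is left out for its scale. The squares of CYP1B1, HMOX1, AQP3 and ALDH3A1 lie above 0.5, and the circles of the 14 genes drawn lie between -0.15 and 0.23.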

How the data were processed

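Messenger RNA of A549 cells was sequenced in 30 libraries. The authors deposited 1 table of expected counts per gene, which RSEM estimates and which need not be whole; 8.50% to 9.82% of the values per library were not, and all were rounded. Reads were trimmed with Trim Galore 0.6.5, aligned with STAR 2.7.3a to GRCh38 and counted with RSEM 1.3.3, with FastQC 0.11.9 as quality check, per the submitters' processing notes. The annotation release and the strand setting are not given in the sources used here, so reads of overlapping genes may be shared. The 240 columns of other samples were not used. Symbols and coordinates were matched by gene ID for 57055 of 60675 rows (GENCODE 29).

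Medium minus Low was tested with edgeR 4.0.16 in R 4.3.3 (robust quasi-likelihood fit, TMM factors 0.958 to 1.03, formula as a term, 13 residual degrees of freedom). Genes were kept by filterByExpr with a minimum count of 10, and p-values were adjusted by Benjamini-Hochberg over all 17488, with a threshold of 0.05. The formula-wise and interaction fits had 1 mean per formula and dose (10 degrees of freedom), and the fit of dose steps used 27 libraries (21 degrees of freedom). An SE is the absolute log2 change over the root of F. CPM use TMM-scaled totals of all 30 libraries, and levels are not compared between genes, since CPM carry no length. Values over 9 libraries include differences between formulas. The named genes were, at a mean log2 CPM of at least 1, the 15 largest called changes in each direction, up to 4 called members per list with the smallest adjusted p, and the 5 leading genes of the interaction and of the steps; 42 met it for the pooled change, of which 2 are not reported here. Others are list members given with their values, or genes chosen after their values were seen. The 39 fixed lists, 6 added lists, the libraries and tests were chosen with earlier results of these data known. DESeq2 1.42.0, other scalings and filters, a replicate block and left-out libraries or formulas were alternatives. The code was tested on simulated counts. Promoters were matched by symbol for 11960 tested genes.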

Additional observations from a re-analysis of the deposited data

Results flagged for a closer look

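In 92 groups of a named gene or library measure at 1 dose, the library farthest from the rest was compared with Dixon's critical value, which chance passes in about 1 group in 20, and 5 passed. ALDH3A1 was at 1304 CPM in the Medium library of Sagunja-tang, above the other Medium libraries at 1103 to 1171. It was at 884 CPM in Sibjeondaebo-tang Low replicate 3, below the other Low libraries at 964 to 1033. CFB was at 7.04 CPM in the Low library of Sagunja-tang, against 5.92 to 6.44 in the other Low libraries. SLC38A2 was at 354 CPM in Sibjeondaebo-tang Low replicate 3, against 299 to 322 in the others. Long non-coding genes took 1.21% of the counts of Samul-tang Low replicate 2, against 0.842% to 0.969% in the other Low libraries. ALDH3A1, CFB and SLC38A2 each passed the pooled test without the library named.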

How the results depend on the processing

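None of the 42 named genes changed sign under any alternative. With each library left out in turn 32 of the 42 kept their call, and with each formula left out 15 did. The number of calls moved with the setting, and where no reason follows from its construction the cause was not tested. The pooled count of 123 was 120 with relative log expression factors (33 higher, 87 lower), 113 without the formula term, and 86 with all 30 libraries in the fit. It was 254 with DESeq2 (106 higher, 148 lower) and 433 without a filter on low counts (161 higher, 272 lower, over 31953 genes). It was 38 without Palmul-tang, 41 without Sibjeondaebo-tang, 66 without Samul-tang and 104 without Sagunja-tang, which leave fewer libraries. With 1 library left out it ran from 77 to 212. DESeq2 called 112 of the 123, and gave no adjusted p for HAO2, HP, RGCC, ATP8B5P and CFB. Of the 42 named genes 26 lost the call without Palmul-tang, 22 without Sibjeondaebo-tang, 17 without Samul-tang, 5 without Sagunja-tang, 6 with all 30 libraries and 5 without the formula term.

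Without the filter the interaction called 32 genes, Palmul-tang 27, Sibjeondaebo-tang 68, Samul-tang 25 and the difference of dose steps 206. With DESeq2 the same tests called 1, 11, 24, 2 and 45. With 1 library left out the interaction called 0 to 2 genes, Palmul-tang 0 to 5, Sibjeondaebo-tang 0 to 72, Samul-tang 0 to 2 and the difference of steps 9 to 18, the last of which was 5 without Sibjeondaebo-tang. Palmul-tang reached 5 without Sibjeondaebo-tang Low replicate 1.

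Over 8 pairs, the deviations of same-numbered Medium and Low libraries correlated weakly, at -0.023 to 0.085. In Palmul-tang they correlated at 0.053 to 0.085, against -0.030 to -0.018 for libraries of other numbers. In Sibjeondaebo-tang replicate 1 the order was reversed, with -0.023 against 0.026. Samul-tang has 2 libraries per dose, so their deviations mirror each other. Both of its pairs therefore gave the same value, 0.049 against -0.049, and count as 1 observation. The main fit held no replicate term. A replicate block called 264 genes pooled (83 higher, 181 lower), all 123 among them, and 253 as 9 pairs (81 higher, 172 lower). With the block Palmul-tang had 3 calls, Sibjeondaebo-tang 35, Samul-tang 1, the interaction 0 and the difference of steps 18. The median SE of a log2 change was 0.045 over tested genes, and it was 0.026 over the called ones.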

Other observations

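Of the 123 called genes 85 were outside the fixed lists, and those named here were chosen after their values were seen. RBP4, the plasma carrier of retinol, was at 116 to 133 CPM in Medium and 136 to 153 CPM in Low libraries, without overlap, and changed by -0.22 (SE 0.025, adjusted p = 6.45e-06). EHF, an epithelial ETS factor, averaged 76.2 CPM in Medium and 87.2 CPM in Low libraries and changed by -0.20 (adjusted p = 6.45e-06). STC1, stanniocalcin, a secreted glycoprotein hormone, averaged 32.8 CPM in Medium and 38.6 CPM in Low libraries, a change of -0.24 (adjusted p = 0.000161). ANKRD1, a known target of YAP, changed by -0.20 without overlap (adjusted p = 0.000622). PLAU, urokinase, changed by -0.18 and HGF, the ligand of MET, by -0.17. The receptor kinases ROS1, at -0.15, and ERBB3, at -0.14, also fell. All of these kept their call with any 1 library left out, except ERBB3, which lost it without Sibjeondaebo-tang Medium replicate 1.

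Further called genes are given singly, with no list tested for them. SLC40A1, ferroportin, the iron exporter, averaged 56.9 ± 1.76 CPM in Medium and 61.7 ± 1.56 CPM in Low libraries (SD, n = 9 each), without overlap. Its change was -0.12 (adjusted p = 0.0039). SLC39A8, an importer of zinc, manganese and iron, changed by -0.13 (adjusted p = 0.00316). CYBRD1, a ferric reductase, changed by -0.10 (adjusted p = 0.0381), and 6 of the 18 fits with 1 library left out called it. FTH1, ferritin heavy chain, was at 0.086 (adjusted p = 0.171) and FTL, ferritin light chain, at 0.095 (adjusted p = 0.112). COL4A3 and COL4A4, chains of basement membrane collagen, changed by -0.19 and -0.10, and 13 of the 18 fits called COL4A4. COL12A1 changed by -0.098 and COL5A2 by -0.090, which 5 and 4 of the 18 fits called. Among the 24 tested complement genes, a group formed after the values were seen, 3 fell and none rose, with a median of -0.082, and C5 and CFB, which are also in the plasma protein list, were among them. Of 28 integrins ITGA1 and ITGB8 fell, of 10 claudins CLDN2, of 13 genes of the SLC16 family SLC16A4, and of 2 serum amyloid genes SAA2, with no rise in these groups.

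Of rises outside the lists KPNA2, an importin of nuclear cargo, averaged 419 ± 14.6 CPM in Medium and 388 ± 9.79 CPM in Low libraries (SD, n = 9 each) and changed by 0.11 (adjusted p = 0.0145). PFN2, a profilin of actin, changed by 0.096. SPAG5, a spindle protein, changed by 0.088, a call that 8 of the 18 fits kept, and SFN, 14-3-3 sigma, by 0.11, which 4 kept.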
